A study of Mus musculus with 6 samples.

Results

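The expression of 10 genes of neurotrophic signalling was followed through the cell types of the degenerating rd10 retina: the ligands Bdnf, Gdnf and Fgf2 and the receptors Ntrk2, Ngfr, Gfra1, Gfra2, Ret, Fgfr1 and Igf1r. They were chosen by symbol, and all 10 were among the 32285 genes of the count tables. The samples were 6 single-nucleus libraries of retinas from B6.CXB1-Pde6b-rd10/J mice, collected at postnatal day 20, and every group, controls included, carried the Pde6b mutation that kills rods. Eyes received saline (replicates 1, 2 and 6) or 20 ng of recombinant IL-27 (replicates 4, 5 and 10) into the vitreous at postnatal day 18. The comparison asked whether the cytokine changed, within 2 days of injection, which cells make these factors and which cells could receive them.

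The members belong to signalling systems known for keeping neurons alive. BDNF acts through the receptor tyrosine kinase TrkB, the product of Ntrk2, and binds with lower affinity to the product of Ngfr. GDNF and neurturin bind the anchored co-receptors encoded by Gfra1 and Gfra2, which present them to the kinase Ret. FGF2 signals through FGF receptors such as Fgfr1, and IGF1 and IGF2 through Igf1r. In the injured retina, photoreceptors can be supported directly or by way of Muller glia, the radial glia that span the tissue, so the cell that holds a receptor matters as much as the cell that makes the ligand.

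The libraries held 8968 to 9965 barcodes and 36678332 to 48260748 UMIs, and 52304 nuclei were retained, with a median of 2782 to 3790 UMIs per nucleus in a library. Any pair of libraries shared 18 to 30 barcodes, at most 0.335% of the smaller one. Levels are in CPM, a gene's UMIs relative to all UMIs of the summed nuclei of one type in a library, given as mean ± SD over the 6 libraries unless stated. From markers, 11 types were named: rods (15576 nuclei), cones (3346), bipolar cells (BC, 9541), amacrine cells (AC, 10567), horizontal cells (HC, 494), retinal ganglion cells (RGC, 2202), Muller glia (4767), astrocytes (294), microglia (1511), endothelial cells (242) and pericytes (117). The 10 leading genes of the Muller cluster held none of the 8 Muller markers and 1 ciliary epithelium marker (Col9a1), although all 8 Muller markers lay above the mean of the clusters in it. Muller glia were 1 cluster, so every Muller value here is that of cluster 1 and no clusters were merged into it, whereas in AC and BC, classes of several clusters, 2 clusters with the same shortfall were set aside. A further cluster of 686 nuclei, led by Fbln1 and called the Fbln1 cluster, had 7 of 8 Muller markers and 6 of 8 ciliary epithelium markers above that mean. Its score was 2.36 for the ciliary epithelium list and 1.23 for the Muller list. A score is the mean log2 level of a list's markers relative to the mean of the clusters. The Fbln1 cluster was recognised and kept apart by the highest score for 4 genes (Fbln1, Frmpd4, Reln and Csmd3) that the study chose on these same samples. The Muller and ciliary epithelium lists did not decide this. Types were cut from the same nuclei, so differences between types are described without a test.

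**Figure D1:**
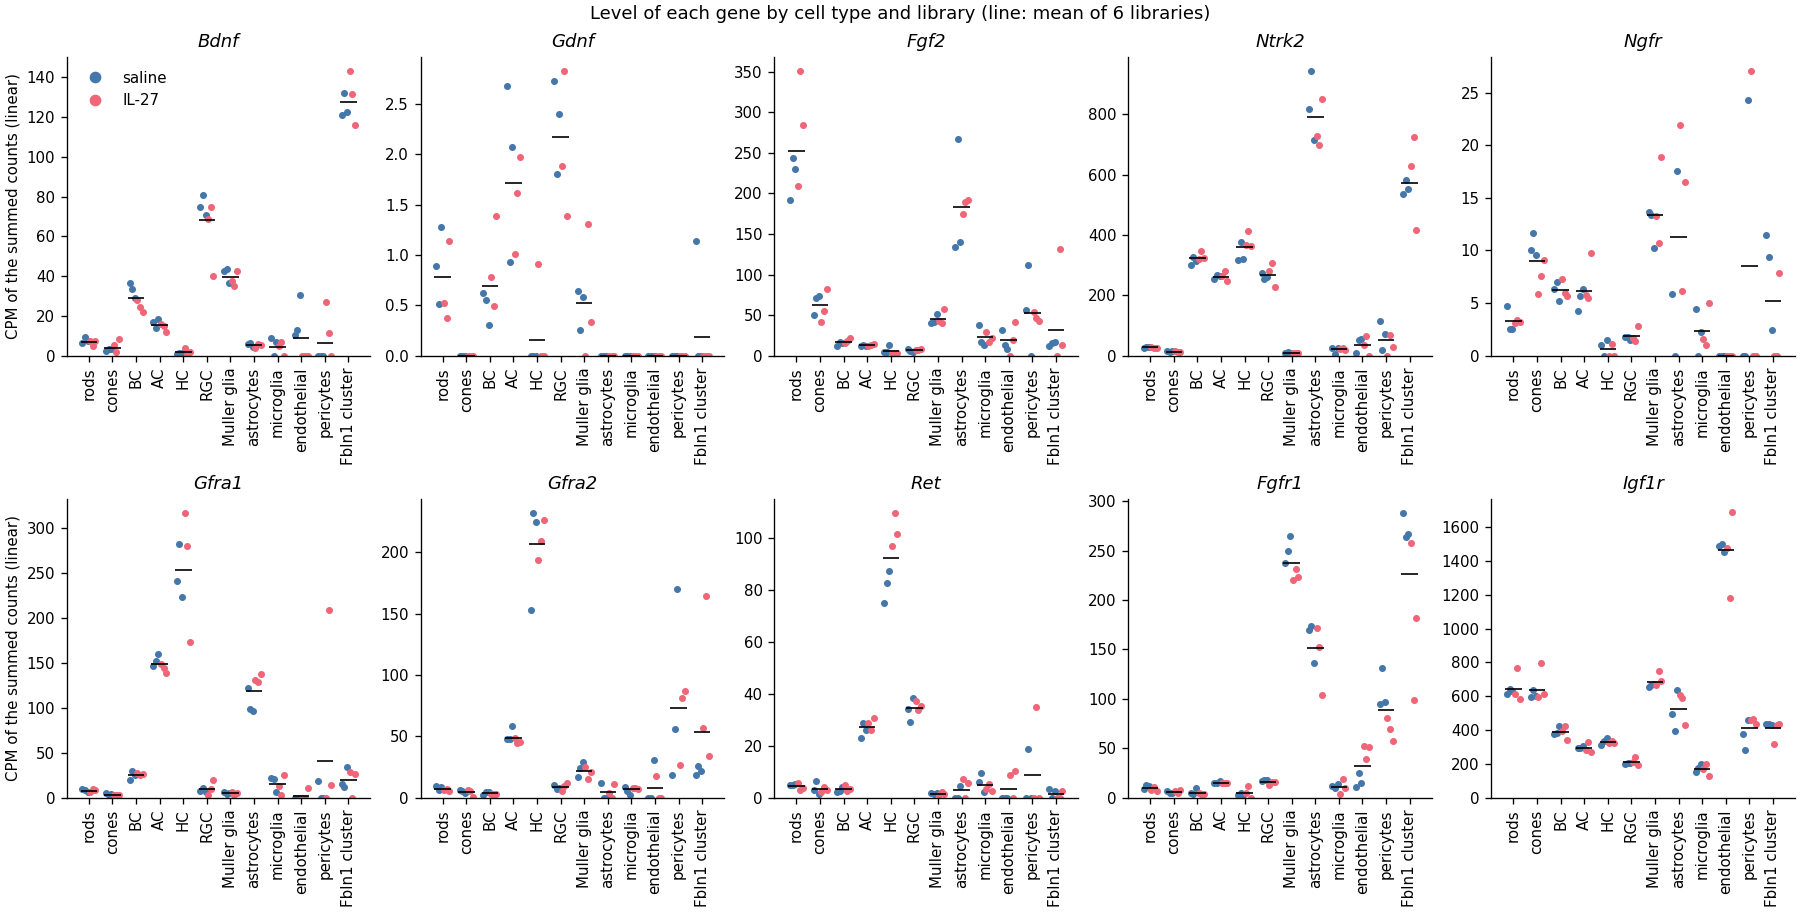
Level of each of the 10 genes in 11 cell types and the Fbln1 cluster, in CPM of the summed counts on linear axes that differ between panels. Each point is 1 library (blue saline, red IL-27) and each line the mean of 6. Fgf2 peaked in rods at 252 CPM, Fgfr1 in Muller glia at 238 CPM, and Gfra1, Gfra2 and Ret in HC at 253, 207 and 92.2 CPM.

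Most receptor transcripts lay in inner neurons. BC, AC, HC and RGC, with the 2 set-aside AC and BC clusters, held 92.6% of the Ntrk2 UMIs counted, 96.4% of Gfra1, 86.4% of Gfra2 and 94% of Ret. Fgfr1 was the glial receptor of the set: Muller glia, astrocytes and microglia held 67.1% of its UMIs, between 63.6% and 73.2% in the single libraries. Among ligands, rods and cones held 65.6% of Fgf2, and inner neurons held 73.8% of Bdnf against 16.5% in the same glia. These shares follow the number of nuclei captured of each type as well as the level in them.

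**Figure D2:**
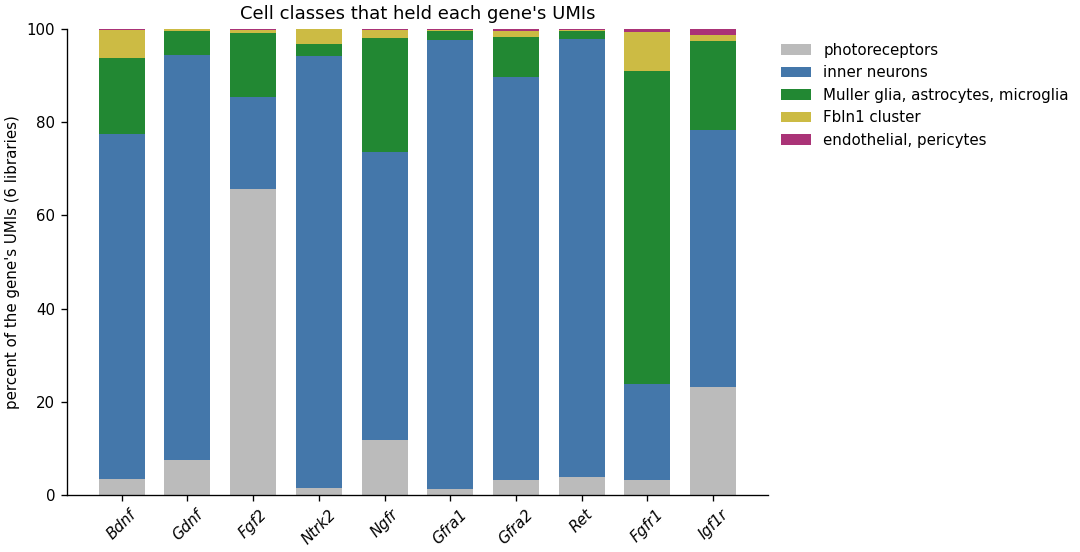
Percent of each gene's UMIs, over the 6 libraries, that lay in photoreceptors, inner neurons, glia, the Fbln1 cluster and vascular cells. Inner neurons held the largest share for 8 of the 10 genes, photoreceptors for Fgf2 (65.6%) and glia for Fgfr1 (67.1%).

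Bdnf (chr2:109674700-109727007, plus strand of GRCm38) encodes the neurotrophin that supports ganglion cells and synapses. Among the named types its level was highest in RGC, at 74.8, 80.6 and 70.5 CPM in the saline libraries and 68.7, 74.8 and 39.8 CPM in the IL-27 libraries. IL-27 replicate 10 was the low value and the other 5 lay close together. Muller glia followed at 39.6 ± 3.78 CPM and BC at 28.9 ± 5.32 CPM (n = 6), and the ranges of these 2 types met between 35.0 and 36.4 CPM. AC held 15.4 ± 2.25 CPM, and in all other types the mean was below 10 CPM. The Fbln1 cluster held more than any named type, 116 to 132 CPM in the 4 libraries with over 100 of its nuclei.

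Within RGC and AC, Bdnf was carried by subsets. Clustering RGC again, without the members, gave 28 clusters named by a leading gene, and their mean Bdnf ran from 0 CPM (cluster led by Mid1, 0 UMIs in 35 summed nuclei) to 192 ± 54.6 CPM (cluster led by Npsr1, n = 6). The clusters led by Vit (157 CPM), Oprm1 (155 CPM) and Hpse2 (144 CPM) came next, while those led by Chst9 (8.69 CPM) and Dnah8 (10.2 CPM) had few Bdnf UMIs despite holding 132 and 137 nuclei. In AC, the cluster led by Spink13 held 88.2 ± 18.1 CPM, and each of the other 12 AC clusters stayed below 18 CPM. That cluster also had the highest Fgf2 among AC and BC clusters, at 44.9, 46.1 and 44.6 CPM in saline and 36.5, 47.9 and 45.4 CPM in IL-27 libraries. In BC, the cluster led by Igfn1 was highest, at 74.6 ± 27.8 CPM, and rod bipolar cells, recognised by their markers, were lowest at 12.8 ± 4.19 CPM.

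Ntrk2 (chr13:58806569-59133970, plus strand), the TrkB gene, was the receptor with the clearest division between glial types. In astrocytes it stood at 817, 942 and 715 CPM in saline libraries and 729, 697 and 851 CPM in IL-27 libraries. HC followed at 359 ± 36.6 CPM, BC at 322 ± 15 CPM, RGC at 267 ± 26.3 CPM and AC at 262 ± 12.1 CPM (n = 6). The ranges of neighbours in this order overlapped from HC to AC, so that order is not resolved, while every astrocyte value lay above every HC value. Muller glia, in contrast, held 9.38, 11.6 and 10.3 CPM in saline and 8.07, 8.87 and 8.28 CPM in IL-27 libraries, below rods (27.4 ± 1.89 CPM) in all 6 libraries.

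The low Muller level was checked against free RNA at equal depth. After thinning every nucleus to 1000 UMIs, 44 of 4728 Muller nuclei had a Ntrk2 UMI (0.931%, 95% interval 0.677 to 1.25%), against 2.58% of 11326 rods and 1.4% of 3283 cones. The Muller share did not exceed that of photoreceptors and is read as background. The same thinning left a Ntrk2 UMI in 51.4% of 290 astrocytes (45.5 to 57.3%), 30.5% of HC, 25.9% of BC, 23.1% of RGC and 22.2% of AC. Before thinning, median depths were 3757 UMIs in astrocytes, 4432 in Muller glia and 1285 in rods, with a Ntrk2 UMI in 88.1%, 4.2% and 3.61% of nuclei, and 3727 rods too shallow for 1000 UMIs were left out. Within BC, Ntrk2 ran from 184 CPM in the cluster led by Grik1 to 544 ± 51.3 CPM in the cluster led by Skor2. Among the RGC clusters it peaked at 687 ± 159 CPM in 32 nuclei led by Slc18a2, which also had the highest Fgfr1 (115 ± 38.8 CPM) and in which none of 9 RGC markers lay above the mean of the RGC clusters.

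The Fbln1 cluster differed from Muller glia in these genes. In the 4 libraries with over 100 of its nuclei, Ntrk2 was 535, 583 and 553 CPM in saline and 416 CPM in IL-27 replicate 10, a mean of 522 ± 73.4 CPM against 9.88 ± 1.4 CPM in Muller glia of the same libraries. The Muller value is at the background level given above, so no ratio is given for Ntrk2. Bdnf was 2.97 times as high (123 against 41.3 CPM). Ntf3, which encodes neurotrophin-3, stood at 116 against 10.0 CPM. The Muller level of Ntf3 was as low and was not checked against free RNA, so no ratio is given for it either. Fgf2 went the other way, at 14.4 CPM in the cluster against 47.7 CPM in Muller glia, while Fgfr1 was level at 250.0 against 244 CPM. These differences are descriptive, since the cluster was cut from the same nuclei, although none of the members took part in the clustering.

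The Ntrk2 estimate for Muller glia depended on how these nuclei were grouped. The cluster made up 20.1, 22 and 12.1% of Muller and cluster nuclei in saline replicates 1, 2 and 6, and 1.49, 0.835 and 14% in IL-27 replicates 4, 5 and 10. The groups overlapped, through IL-27 replicate 10, and the exact two-sided permutation test gave p = 0.2, where 3 against 3 libraries cannot go below 0.1. With the cluster summed into Muller glia, Ntrk2 read 92.0, 122 and 68.4 CPM in saline, and in IL-27 samples 14.3, 14.5 and 53.8 CPM, lowest in both libraries with fewest cluster nuclei. The log2 fold change of that sum was -1.78 (95% interval -2.76 to -0.81), with an adjusted p of 0.238 by edgeR, in a fit that called 0.0284% of all genes and none of the members. Without the cluster it was -0.30 (-0.75 to 0.15), with an adjusted p of 0.956. The estimate for Bdnf was -0.36 with the cluster and -0.10 without it. For Ntf3 it was -0.51 (adjusted p = 0.527 by edgeR) with the cluster and 0.65 (adjusted p = 0.956) without it, so its sign turned. Without the cluster, Ntf3 had 33 to 69 UMIs per library, at a level not checked against free RNA.

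**Figure D3:**
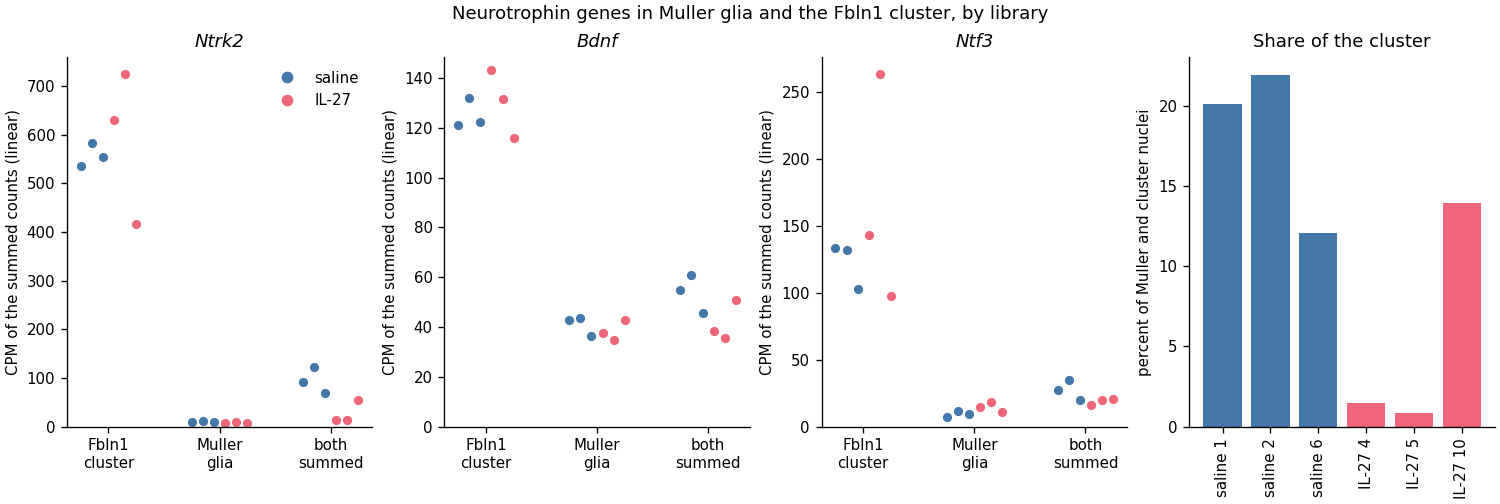
CPM of Ntrk2, Bdnf and Ntf3 in the Fbln1 cluster, in Muller glia and in both summed (linear axes from 0; points are libraries, blue saline, red IL-27), with the cluster's percent of Muller and cluster nuclei in each library. Ntrk2 was at most 11.6 CPM in Muller glia in every library and 14.3 to 122 CPM once the cluster was added; IL-27 replicates 4 and 5 held 12 and 7 nuclei of the cluster.

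Ngfr (chr11:95568818-95587735, minus strand), the second BDNF receptor, was low in every type. Muller glia were highest, at 13.4 ± 3.07 CPM from 296 UMIs, and 1.86% of thinned Muller nuclei had a UMI (1.5 to 2.29%) against 0.283% of rods and 0.792% of cones (5.78, 0.458 and 2.34% before thinning). Cones held 8.96 ± 2.03 CPM, BC 6.26 ± 0.802 CPM and AC 6.19 ± 1.88 CPM, and RGC 1.83 ± 0.494 CPM. Neuronal Ngfr was concentrated in 3 clusters: BC led by Slc7a15 at 37.7 ± 5.56 CPM, and AC led by Slc17a8 and by Tnc at 19.8 ± 7.6 and 18.2 ± 5.08 CPM. Slc17a8 encodes a vesicular glutamate transporter.

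Gdnf (chr15:7810846-7837575, plus strand) was sparse in these nuclei, with 238 UMIs in 218 nuclei overall. No type had a mean above 2.17 CPM (RGC, 46 UMIs), AC followed at 1.71 ± 0.67 CPM from 112 UMIs, and 12 UMIs were found in Muller glia. No Gdnf UMI was counted in cones, astrocytes, microglia, endothelial cells or pericytes, which at 3 counts allows a Gdnf UMI in up to 0.0914% of cones and 1.03% of astrocytes at 1000 UMIs per nucleus. This limits nuclei with a UMI, not nuclei that express the gene. The other ligands of the family were also low. Nrtn, the gene of neurturin, was at 20.7 ± 14.5 CPM in the Fbln1 cluster, of which IL-27 replicates 4 and 5 held only 12 and 7 nuclei. It was at 8.45 ± 2.51 CPM in rods and 4.88 ± 1.41 CPM in cones, and Artn and Pspn had no mean above 0.561 CPM.

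The transcripts of the GDNF receptors lay mainly in inner neurons, with Gfra1 also in astrocytes and Gfra2 also in pericytes. Gfra1 (chr19:58235604-58455909, minus strand) was highest in HC, at 241, 282 and 223 CPM in saline and 316, 280.2 and 174 CPM in IL-27 libraries, followed by AC at 148 ± 7.11 CPM and astrocytes at 119 ± 17.2 CPM. Gfra2 (chr14:70890120-70979838, plus strand) was highest in HC at 207 ± 29.7 CPM, then in pericytes at 73.4 ± 54.8 CPM from 25 UMIs and in AC at 48.7 ± 5.05 CPM. Muller glia held 21.7 ± 5.3 CPM of Gfra2. Ret (chr6:118151745-118197718, minus strand) was also highest in HC, at 92.2 ± 12.8 CPM, followed by RGC at 34.7 ± 3.18 CPM and AC at 27.2 ± 2.69 CPM, and was at or below 8.93 CPM in all other types. HC, the interneurons that feed back onto photoreceptors, were the only type that ranked first for all 3.

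Within AC the co-receptors and Ret marked different clusters. Gfra1 was highest in the cluster led by Kcnh1 (512 ± 29.7 CPM) and in the cluster led by Tshr (447 ± 31.5 CPM), and starburst cells, recognised by 4 markers, held 226 ± 25.7 CPM. Gfra2 was also highest in the Kcnh1 cluster, at 209 ± 23.5 CPM. Ret was highest in the cluster led by Dnah11, at 88.1, 112 and 112 CPM in saline and 138, 119 and 135 CPM in IL-27 libraries, where Gfra1 and Gfra2 stood at 14.4 ± 10.6 and 8.3 ± 1.61 CPM. Support for calling the Dnah11 cluster AC was weak, with 3 of 8 amacrine markers and an amacrine score of -0.46. The amacrine score was also below 0 for Spink13 (4 of 8, -0.19), Kcnh1 (5 of 8, -0.07) and starburst cells (4 of 8, -0.21). In BC the bipolar score was below 0 for the Grik1 cluster (4 of 9, -0.25), among others. In BC, a single cluster, led by Igfn1, held 225 ± 46.3 CPM of Gfra1, and the other 8 stayed below 39 CPM, with Ret below 9 CPM in all 9.

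Co-detection in single nuclei differed between types and clusters. In HC, 239 of 255 nuclei with a Ret UMI (93.7%) also had a Gfra1 or Gfra2 UMI, against 212 of 230 (92.2%) without one. In AC the figures were 380 of 1363 (27.9%) and 3669 of 9136 (40.2%), and in RGC 61 of 527 (11.6%) and 163 of 1531 (10.6%). Of the Ret nuclei of the Dnah11 cluster, 24 of 465 (5.16%) had a co-receptor UMI, near the 38 of 820 (4.63%) of its nuclei without Ret, and in the Kcnh1 cluster 116 of 123 (94.3%) did, near the 902 of 960 (94%) without Ret. Counting all UMIs, the direction of the difference was not shared by all AC clusters. A co-receptor UMI was more frequent in Ret nuclei of the set-aside Mei1 cluster (61 of 84, 72.6%, against 831 of 1444, 57.5%) and of the clusters led by Cpne4 (20 of 46, 43.5%, against 233 of 862, 27%) and Spink13 (27 of 194, 13.9%, against 75 of 1008, 7.44%). The same held for the clusters led by Tnc (22 of 51, 43.1%, against 568 of 1548, 36.7%) and Pantr1 (4 of 7, 57.1%, against 160 of 347, 46.1%). A co-receptor UMI was less frequent in Ret nuclei of the clusters led by Vip (20 of 75, 26.7%, against 304 of 699, 43.5%), Tshr (11 of 27, 40.7%, against 432 of 723, 59.8%) and Cartpt (6 of 12, 50%, against 125 of 189, 66.1%). The RGC clusters with most Ret, led by Chst9 (71.0 ± 25.5 CPM) and Trhr (67.5 ± 16.9 CPM), had co-receptor UMIs in 0 of 59 and 7 of 50 Ret nuclei, against 5 of 73 and 4 of 38 nuclei without Ret. These shares rise with depth, at a median of 9898 UMIs in HC, 9497.5 in RGC and 5487 in AC. They are therefore read within a type, which does not equalise depth between nuclei with and without a Ret UMI. With nuclei thinned to equal depth, the excess in Ret nuclei was lost for Mei1 (4 of 15, 26.7%, against 30.5%). It was also lost for Cpne4 (0 of 6 against 6.87%) and Tnc (0 of 9 against 10.3%). It stayed for Spink13 (4 of 51, 7.84%, against 2%) and Pantr1 (1 of 4, 25%, against 12.6%). The lower shares stayed lower for Vip (0 of 12 against 15.2%), Tshr (1 of 5 against 30.4%) and Cartpt (0 of 2 against 17.6%). Gfra3 and Gfra4, the other co-receptor genes of the family, had no mean above 1.31 and 6.38 CPM.

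**Figure D4:**
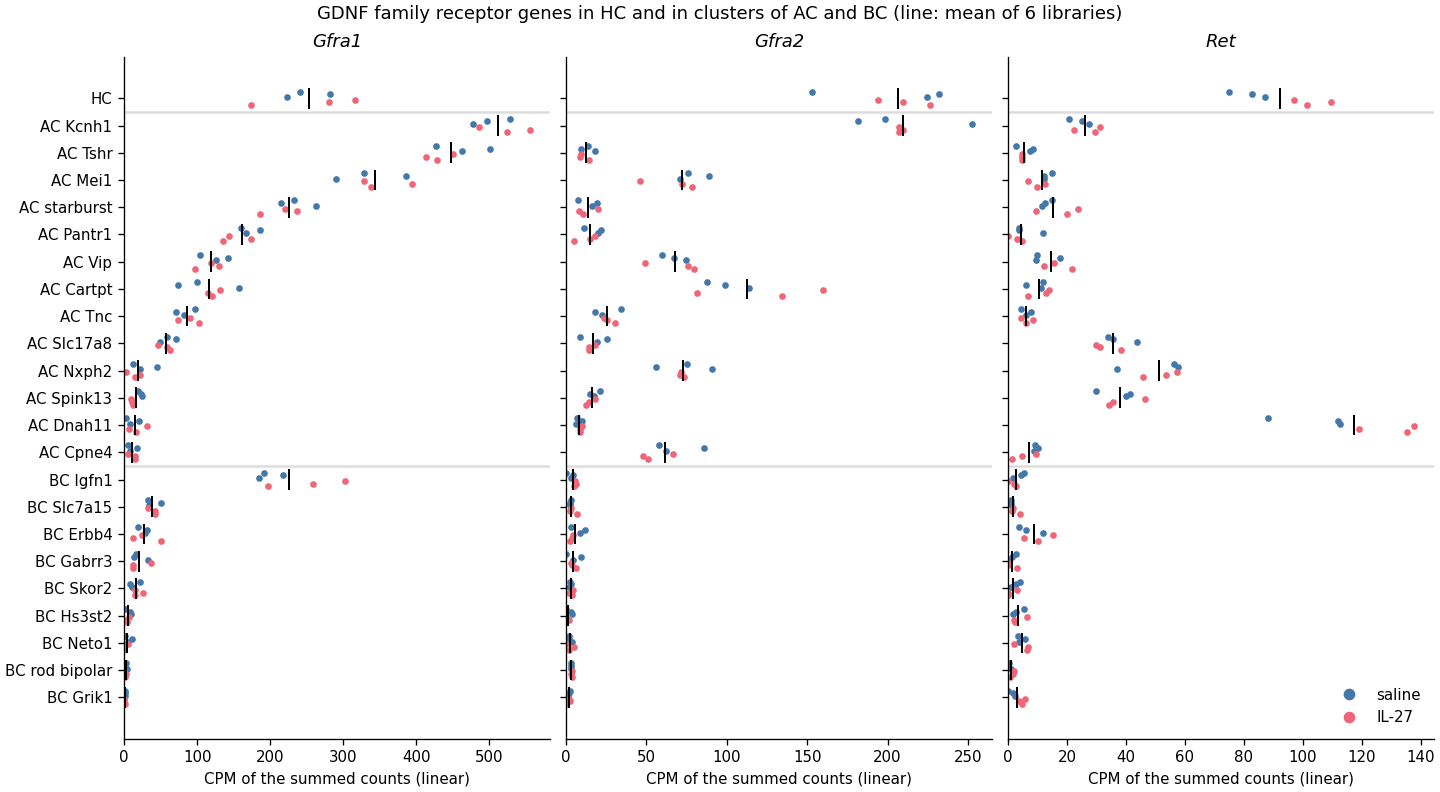
CPM of Gfra1, Gfra2 and Ret in HC and in 13 AC and 9 BC clusters, each AC and BC cluster named by its leading gene or markers (linear axes from 0; points are libraries, lines the mean of 6). HC held all 3 transcripts, the AC Kcnh1 cluster held Gfra1 and Gfra2 with 26.1 CPM of Ret, and the AC Dnah11 cluster held 117 CPM of Ret with little of either co-receptor.

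Fgf2 (chr3:37348346-37410108, plus strand), the fibroblast growth factor that photoreceptors produce under stress, was highest in rods. Its level was 192, 244 and 230.4 CPM in saline and 209, 351 and 285 CPM in IL-27 libraries, and astrocytes followed at 183 ± 47.7 CPM, within the spread of rods. Cones held 62.3 ± 15.4 CPM and Muller glia 45.8 ± 7.05 CPM, and the mean was below 23 CPM in BC, AC, HC, RGC, microglia and endothelial cells. Rod RNA can enter other droplets, so the level elsewhere was set beside 8 rod markers. Fgf2 stood at 18.2% of its rod level in Muller glia and 72.6% in astrocytes, above all 8 markers (1.12 to 8.08% and 2.47 to 10.6%). In BC (6.64%) and AC (5.07%) 2 of 8 markers reached as high a share of their rod level, and in endothelial cells (7.46%) 7 of 8. Nudt6 overlaps Fgf2 on the opposite strand, and at 30 ± 5.98 CPM in rods it was also highest there, so reads of this pair cannot be told apart if counting ignored strand.

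Fgfr1 (chr8:25513654-25575718, plus strand) was a gene of Muller glia, at 237, 250.0 and 265 CPM in saline and 220.1, 232 and 224 CPM in IL-27 libraries. Astrocytes held 151 ± 27.1 CPM, pericytes 88.6 ± 25.6 CPM and endothelial cells 32.4 ± 18.1 CPM, while rods, the cells with most Fgf2 UMIs, held 9.92 ± 2.28 CPM and cones 5.94 ± 1.3 CPM. The related receptor gene Fgfr2 had the opposite order, with 1831 ± 159 CPM in cones and 1571 ± 107 CPM in rods. Fgfr3 had a mean of 0.687 CPM or less in every type. Of other ligands, Fgf9 was highest in Muller glia at 117 ± 17.9 CPM, and Fgf1 in astrocytes at 139 ± 36.2 CPM and RGC at 103 ± 21.2 CPM.

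Igf1r (chr7:67952827-68233668, plus strand), the IGF1 receptor gene, was found in every type. Endothelial cells were highest, at 1486, 1502 and 1454 CPM in saline and 1479, 1181 and 1688 CPM in IL-27 libraries, and all other types lay below 800 CPM in every library. Muller glia (682 ± 34.5 CPM), rods (642 ± 63.3 CPM) and cones (639 ± 78.1 CPM) overlapped one another, and microglia were lowest at 172 ± 28.9 CPM. Among AC and BC clusters, Igf1r was lowest in starburst AC at 125 ± 21.5 CPM and highest in the BC cluster led by Grik1 at 506 ± 52.6 CPM. The ligand Igf1 was highest in microglia at 216 ± 53 CPM and next in BC at 131 ± 15.8 CPM, and Igf2 in astrocytes at 194 ± 63.7 CPM. Insr, the insulin receptor gene, was also highest in endothelial cells, at 819.9 ± 136 CPM.

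Transcripts of neurotrophin-3 and its receptor were highest in different cells. Ntrk3, the receptor gene for neurotrophin-3, was highest in RGC at 419 ± 28.3 CPM and in AC at 243 ± 16 CPM, while Ntf3 itself was highest in the Fbln1 cluster and stood at 12.2 ± 3.83 CPM in Muller glia.

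For each member the 2 genes with the most similar pattern were taken from 15141 genes at 10 CPM or more in a type, by correlation of mean levels over the 11 types. These were Gm30373 (r = 0.922) and Tox (0.908) for Bdnf, Gm47423 (0.962) and A330093E20Rik (0.947) for Ntrk2, Lingo1 (0.976) and 9530059O14Rik (0.965) for Ret, Asb7 and Kansl1l (0.943) for Fgf2, and Rhod (0.98) and Sntb1 (0.964) for Fgfr1. Gm47423 lies within Ntrk2 on the opposite strand, so its reads may not be separable from those of Ntrk2. For Gfra1 they were Lmo4 (0.893) and Kcnip3 (0.885), for Gfra2 Vgll3 (0.896) and Osbpl5 (0.892), for Igf1r Gm29107 (0.932) and Zfp383 (0.908), for Ngfr Clk4 (0.933) and Aasdh (0.905), and for Gdnf Kifc2 (0.939) and Vmn2r85 (0.936). The limit of 10 CPM did not apply to the members. Gdnf had 238 UMIs in all and none in cones, astrocytes, microglia, endothelial cells or pericytes, so its pattern lies near the floor. The 11 points share libraries and the means differ in depth, so these values rank genes and carry no test.

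No member was called between IL-27 and saline in any type. Of 110 pairs of gene and type, 64 passed the filter on low counts and were tested with edgeR, with at least 1 type for each of the 10 genes. At an adjusted p of 0.05, 0 of 64 were called, where 0.00558% of all 107505 tests over the 11 types were called (0.0366% in Muller glia, 0.00731% in rods and 0% in the other 9). At an unadjusted p of 0.05, 4 of 64 passed, against 3.6% of all tests. DESeq2 called 0 of 64, with 2 at an unadjusted p of 0.05. The 3 libraries of one group lay wholly above the other 3 in 7 of 64 pairs, against 8.9% of all tests. For 56 of the 64 the 95% interval of the log2 fold change lay within -1 and 1, so a 2-fold change in either direction lay outside it.

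**Figure D5:**
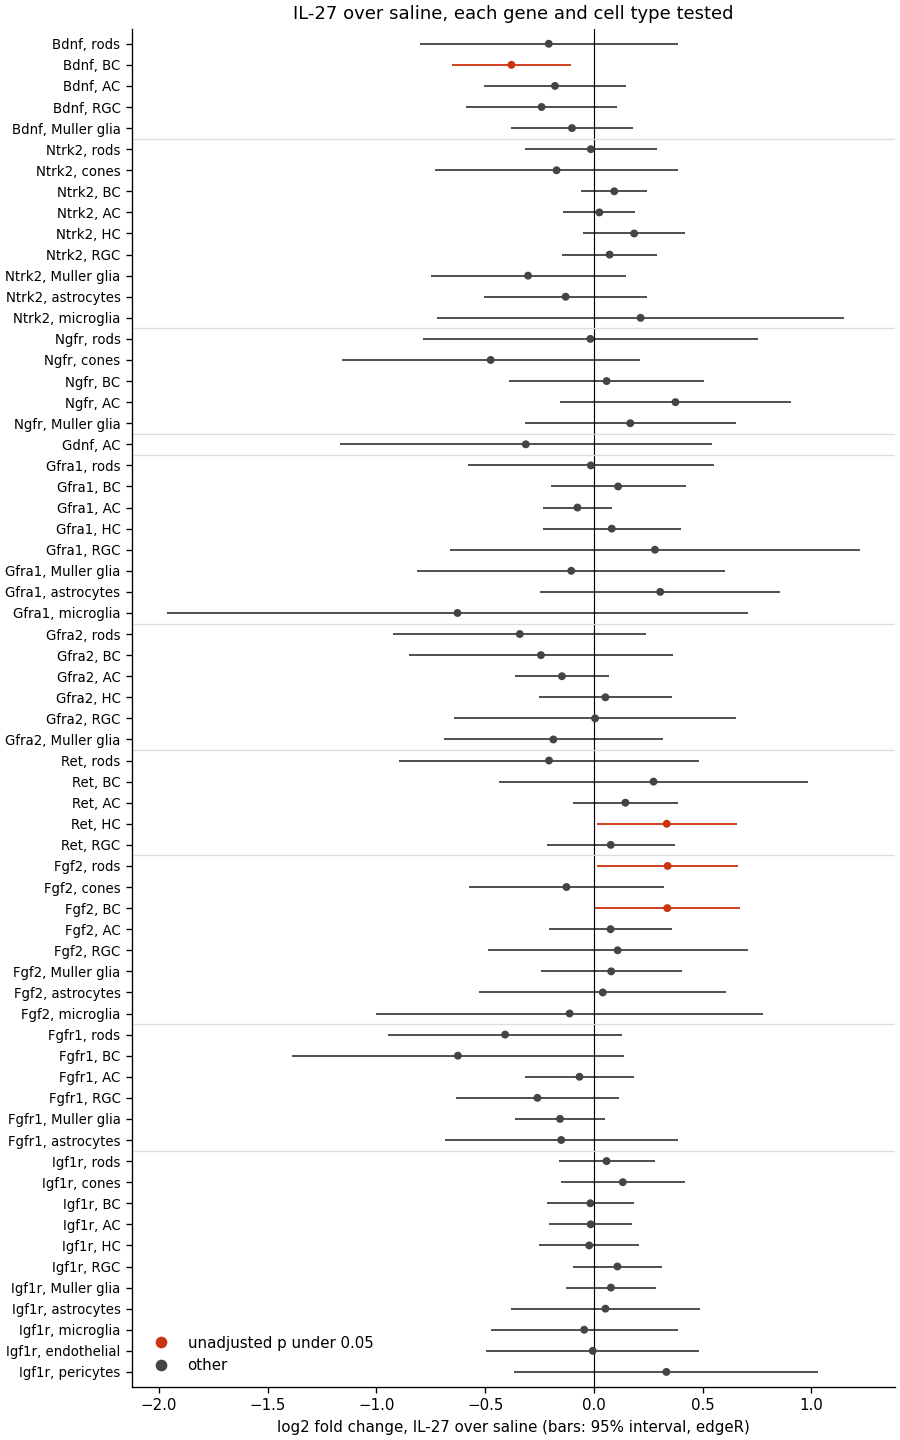
Log2 fold change of IL-27 over saline for the 64 pairs of gene and cell type tested, with 95% intervals from edgeR. The 4 red pairs had an unadjusted p under 0.05 (Bdnf in BC, Ret in HC, Fgf2 in rods and in BC) and no pair had an adjusted p under 0.956.

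The smallest unadjusted p was that of Bdnf in BC. Its level there was 36.4, 33.5 and 28.8 CPM in saline and 27.9, 24.7 and 22.2 CPM in IL-27 libraries, without overlap. The log2 fold change was -0.38 ± 0.13 (SE; 95% interval -0.65 to -0.10), with an adjusted p of 0.9997 by edgeR. The fold change of Bdnf was below 0 in all 5 types tested, from -0.38 to -0.10, and in 14 of 15 BC and AC clusters, which share libraries and are not independent. In RGC it was -0.24 (-0.59 to 0.11), and -0.04 without IL-27 replicate 10. In Muller glia the level was 42.7, 43.6 and 36.4 CPM in saline and 37.5, 35.0 and 42.7 CPM in IL-27 libraries, overlapping throughout, with a fold change of -0.10 (-0.38 to 0.18).

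Fgf2 in rods had a log2 fold change of 0.34 ± 0.15 (SE; 0.02 to 0.66), with an adjusted p of 0.999 by edgeR. The groups overlapped, since IL-27 replicate 4 (209 CPM) lay below saline replicates 2 and 6. The estimate rested on IL-27 replicate 5, without which it was 0.16 with an adjusted p of 0.999 by edgeR, and it was 0.51 with an adjusted p of 0.404 without replicate 4. In BC, where part of the Fgf2 is at the level of free rod RNA, the fold change was likewise 0.34 (0.01 to 0.67), from 14.9 ± 2.16 CPM in saline to 18.6 ± 2.95 CPM in IL-27 libraries (n = 3 each). In Muller glia it was 0.08 (-0.24 to 0.40), in cones -0.13 (-0.57 to 0.32) and in astrocytes 0.04 (-0.53 to 0.61).

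Ret in HC stood at 75.1, 82.9 and 87.3 CPM in saline and 97.0, 109.7 and 101 CPM in IL-27 libraries, all 3 IL-27 values above all 3 saline values. The log2 fold change was 0.34 ± 0.16 (SE; 0.01 to 0.66), with an adjusted p of 0.974 by edgeR, from 53 to 109 nuclei per library. The co-receptors in the same nuclei had fold changes of 0.08 (Gfra1, -0.24 to 0.40) and 0.05 (Gfra2, -0.25 to 0.36). In the Ret-rich AC cluster led by Dnah11 the fold change of Ret was 0.34 (0.04 to 0.65, adjusted p = 0.999), in RGC 0.08 (-0.22 to 0.37) and in AC as a whole 0.15 (-0.09 to 0.39).

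Fgfr1 had a fold change below 0 in all 6 types tested, from -0.63 in BC to -0.07 in AC. The BC value rested on saline replicate 6, where the level was 9.72 CPM against 4.35 and 3.72 CPM in the other saline libraries and 4.36, 3.61 and 3.70 CPM in IL-27 libraries, and without it the fold change was -0.04. In Muller glia all 3 IL-27 libraries lay below all 3 saline libraries (225 ± 5.83 against 251 ± 13.7 CPM), a log2 fold change of -0.16 (-0.36 to 0.05) with an adjusted p of 0.956 by edgeR. Ntrk2 in Muller glia, at background level, also did not overlap between the groups. Ntrk2 was bounded more tightly in inner neurons: 0.09 (-0.06 to 0.25) in BC, 0.03 (-0.14 to 0.19) in AC, 0.07 (-0.15 to 0.29) in RGC and 0.19 (-0.05 to 0.42) in HC. In rods it was -0.01 (-0.32 to 0.29) and in cones -0.17 (-0.73 to 0.39). In astrocytes it was -0.13 (-0.50 to 0.24). Igf1r lay between -0.04 and 0.33 in all 11 types, and in rods, cones and Muller glia its intervals were -0.16 to 0.28, -0.15 to 0.42 and -0.13 to 0.29. Gfra1 was 0.31 (-0.25 to 0.86) in astrocytes, where the groups did not overlap (132 ± 4.58 CPM in IL-27 and 106 ± 14.3 CPM in saline libraries), and Gfra1 and Gfra2 were -0.08 (-0.23 to 0.08) and -0.15 (-0.36 to 0.07) in AC. Ngfr was 0.17 (-0.32 to 0.65) in Muller glia and Gdnf, tested only in AC, -0.31 (-1.17 to 0.54).

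Treating the 22 AC and BC clusters singly gave 121 tests of members, of which 0 were called by edgeR at an adjusted p of 0.05, where 0.00362% of all tests were. At an unadjusted p of 0.05, 6 passed, against 3.93% of all tests. The smallest unadjusted p was that of Gfra1 in the AC cluster led by Spink13, at 19.2, 22.6 and 25.1 CPM in saline and 9.87, 11.5 and 12.1 CPM in IL-27 libraries, without overlap. Its log2 fold change was -0.97 ± 0.29 (SE; -1.58 to -0.36), with an adjusted p of 0.999 by edgeR, from 109 UMIs in all. This is also the AC cluster with most Bdnf.

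The wider pathway list held 69 further ligands, receptors, binding proteins, adaptors and feedback genes of these families, of which 61 were tested in at least 1 type. In 357 tests, 0 were called higher and 0 lower by edgeR, where 0.00558% of all tests were called. An unadjusted p under 0.05 was found in 7 tests with a positive and 9 with a negative estimate, against 3.6% of all tests, and DESeq2 called 0, with 11 under that limit. The median log2 fold change over the list was -0.02, near that of the members (-0.01). Of the 16 at an unadjusted p of 0.05, 5 were of neurotrophins and their receptors (42 tests). All 5 had a positive estimate, among them Ntf3 in Muller glia (0.65). By type, 7 of the 16 lay in Muller glia, out of 46 tests of the list there, where 4.86% of all genes passed that limit. Of these 7, 3 had a positive and 4 a negative estimate. The 4 included Vegfa, an angiogenic and survival factor (136 ± 13.1 CPM in saline, 93.2 ± 4.01 CPM in IL-27 libraries, log2 fold change -0.54, adjusted p = 0.277 by edgeR), and Spry2, an inhibitor that FGF signalling induces (56.8 ± 7.4 and 37.0 ± 6.5 CPM, -0.61, adjusted p = 0.63). Both groups were free of overlap for these 2 genes, and without the filter on low counts both were called, with adjusted p = 0.00706 and 0.00858 by edgeR. They were named after their values were seen.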

How the data were processed

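Nuclei of frozen rd10 retinas were isolated with the Chromium Nuclei Isolation Kit and sequenced by Novogene. The authors counted UMIs with Cell Ranger 9.0.1 per the labels (the matrix headers name 8.0.1), and deposited whole counts per gene and called barcode, without normalization. They analysed them in Seurat 5.2.1, removed doublets with DoubletFinder, integrated libraries with Harmony and annotated nuclei from an atlas. The genome build, and whether counting used strand, are not given in the sources used here. Intronic reads raise counts of long genes in nuclear libraries, so levels were not compared between genes.

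A barcode entered if it had over 500 UMIs, 200 or more genes and less than 5% of mitochondrial UMIs. The highest Scrublet scores (scanpy 1.11.5) were taken as doublets and left out, at a rate of 8% adjusted for homotypic pairs. Libraries were not integrated. Nuclei were clustered on 2000 variable genes, 25 components and 20 neighbours by the Louvain method (igraph 0.11.9, resolution 0.25), leaving out the 10 genes and 69 related genes. Clusters other than the Fbln1 cluster were named from marker lists, with at least 3 markers above the mean of the clusters. Where a single list passed, the cluster was named from it even with a score below 0. UMIs were summed per library and type over nuclei within 2 median absolute deviations of the median log2 total, and given as CPM. The 3 IL-27 sums were compared with the 3 saline sums by edgeR 4.0.16 quasi-likelihood tests in R 4.3.3 (filterByExpr at 10 counts, TMM, Benjamini-Hochberg adjustment over all genes of a type, threshold 0.05). DESeq2 1.42.0 was an alternative. P-values measure the spread between these libraries, which the labels do not tie to animals. Intervals of shares are exact (Clopper-Pearson, 95%) and cover counting error only. Shares were also taken after thinning nuclei to 1000 UMIs.

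The genes, lists and marker rules were chosen with earlier results of these data known. Named genes are the 10 genes in every type, related genes called, partner ligands and receptors, and the 2 genes most like each member over the types, by Pearson correlation of mean log2(CPM + 1) among genes at 10 CPM or more in a type. On simulated counts, with 200 genes changed by 1.5 on the log2 scale, edgeR recovered 188 in rods (13684 genes), 184 in Muller glia (13660 genes), 168 in HC (7614 genes) and 92 in pericytes (1067 genes). False calls numbered 10, 1, 10 and 6 in these types. The planted changes were larger than any estimate for a member (-0.63 to 0.38), so the recovery gives no power for shifts of that size. Alternatives were other size factors, filters, nuclei, doublet handling, resolution, Muller grouping and each library left out. Summing in 2 clusters set aside, and fitting AC and BC clusters singly, were added after the values were seen. Positions are from GENCODE M21 on GRCm38, matched by gene identifier (32235 of 32285 matched), and may differ from the authors' build. Some related genes are not reported here.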

Additional observations from a re-analysis of the deposited data

How the results depend on the processing

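In 16 alternatives, 0 tests of the 10 genes were called, with the smallest adjusted p of an alternative between 0.238 (Fbln1 cluster summed into Muller glia) and 0.999, and with 1 to 6 tests at an unadjusted p of 0.05. Leaving out each library in turn called 0 in every case. The pathway count stayed at 0 except without the filter on low counts, where it was 2 (Vegfa and Spry2 in Muller glia, among 23665 genes). In 14 other settings their adjusted p was at least 0.0694 and 0.314, and the cause was not tested. That setting called 100 genes in Muller glia against 5 with the filter. The 11 fold changes followed through the settings, among them the 4 with an unadjusted p under 0.05, kept their sign in each. These settings refit the same libraries, so the constant sign carries no test. Ntf3 in Muller glia, whose sign turned with the Fbln1 cluster, was not among the 11. The highest type of each gene stayed the highest when ranked by thinned shares, and its level stayed within 1 SD under every alternative. With nuclei thinned to 1000 UMIs, co-receptor UMIs were found in 42.5% of Ret nuclei in HC (37.5% of those without), 9.48% in AC (14.6%) and 1.3% in RGC (1.52%). The direction turned in RGC, where 1 of 77 thinned Ret nuclei had a co-receptor UMI. Summing in the 2 set-aside clusters was chosen after seeing the data. No paired analysis was possible because the groups share no replicate number. Depth limited what could be tested: 4 of the 10 genes passed the filter in cones and in microglia, 5 in HC and in astrocytes, and 1 each in endothelial cells and pericytes.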

Other observations

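The 2 clusters set aside lay outside the types compared. The AC cluster led by Mei1 (1542 nuclei), left out because its 10 leading genes held more markers of another class than of its own, held 344 CPM of Gfra1 and 71.9 CPM of Gfra2 and alone carried 19.9% of all Gfra1 UMIs counted. The BC cluster led by Gabrr3 (1002 nuclei), left out for the same reason, held 37.7 CPM of Bdnf and 425 CPM of Igf1r. Their levels of Gfra1, Gfra2 and Ret in single libraries are in the plot of the GDNF receptors.

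Astrocytes, although only 294 nuclei, held the highest level of several other secreted factors and IGF-binding proteins of the wider list, beside Ntrk2 itself: Igfbp5 at 899 ± 214 CPM, Ptn at 882 ± 82.4 CPM, Vegfa at 737 ± 169 CPM and Igfbp2 at 277 ± 65.9 CPM. The FGF-responsive genes Etv5 and Spry1 were also highest there, at 301 ± 77.9 and 197 ± 31.7 CPM. Manf, the gene of another survival factor, was highest in rods at 141 ± 16.9 CPM, and Lif in Muller glia at 11.1 ± 5.25 CPM.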
